A study of Sus scrofa with 40 samples.

Results

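Renal cortex of porcine kidneys that had gone through 60 min of warm ischemia and 24 h of cold storage (WI+CS24h-C) was compared with cortex of control kidneys (Ctl-C). The members of the comparison were chosen by their array titles alone and were 10 of the 40 arrays of the series, 5 in each group. All kidneys came from Large White pigs 3 months old, with no genetic modification given in the labels. According to the study's methods the animals were brothers that shared anaesthesia and surgery. Control kidneys were taken out, sampled and frozen at once. WI+CS24h kidneys were clamped, kept clamped at 37 °C for 60 min after removal, flushed with University of Wisconsin preservation solution (UW) and kept at 4 °C for 24 h. The other cortex groups, with 5 arrays each, were kidneys frozen at the end of the 60 min of warm ischemia (WI-C) and WI+CS6h-C, which the labels describe as the same stored kidneys biopsied at 6 h. Corticomedullary junction (CMJ) was measured in all 4 conditions on the remaining 20 arrays. No kidney was reperfused, so the model covers ischemia and storage only.

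Warm ischemia stops the delivery of oxygen and nutrients while the tissue is still at body temperature, and cold storage then slows metabolism while the organ waits outside the body. Cells that meet an abrupt stress induce immediate early genes, whose transcripts need no new protein synthesis and decay quickly in unstressed cells. Many of these encode transcription factors of the FOS, EGR and NR4A families. The renal cortex is built mainly of proximal tubule cells, which reabsorb filtered solutes, oxidise fatty acids for energy and carry enzymes for the metabolism of drugs and amino acids. The level of a transcript in a stored organ reflects both synthesis and decay, and in a bulk biopsy fewer cells of a type and less RNA per cell cannot be told apart.

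RNA was hybridised to single-color porcine arrays with 43803 probes of 60 bases. Probes for 8 genes described here are given as the array files hold them, since these letters are what the signal of each gene was measured with. They belong to genes that were higher (FOS, EGR1, CEBPA, XRCC2, FUT2, FCN2) or lower (CELA2A, GSTA1) in WI+CS24h-C, and each has at least 1 forward reading frame without a stop codon. The array files do not place them on a genome, and no position is given here.
FOS: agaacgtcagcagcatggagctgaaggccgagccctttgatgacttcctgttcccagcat
EGR1: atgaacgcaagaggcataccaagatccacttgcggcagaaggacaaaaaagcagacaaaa
CEBPA: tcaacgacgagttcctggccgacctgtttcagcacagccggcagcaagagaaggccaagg
XRCC2: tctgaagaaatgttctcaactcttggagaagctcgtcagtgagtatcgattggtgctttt
FUT2: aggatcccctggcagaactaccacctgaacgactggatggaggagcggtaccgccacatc
FCN2: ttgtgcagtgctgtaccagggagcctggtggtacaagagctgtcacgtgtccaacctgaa
CELA2A: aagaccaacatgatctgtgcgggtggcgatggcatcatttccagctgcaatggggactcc
GSTA1: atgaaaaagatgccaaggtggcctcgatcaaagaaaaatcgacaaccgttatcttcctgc
The FUT2 probe is the 1 of 3 that was well above background in control cortex. CEBPA and FOS each had further identifiers, and these probes belong to 1 of them, which for CEBPA was not well above background on any control array.

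Signals are given as log2 of the background-subtracted intensity after quantile normalization over all 40 arrays, so that 1 unit is a doubling. Differences between groups are log2 fold changes with the standard error (SE) of a limma fit to the 20 cortex arrays. A call needed a Benjamini-Hochberg adjusted p under 0.05 over all 35939 identifiers and a log2 fold change of 0.5 or more in either direction, which is 1.41-fold. These p-values rest on the spread within groups of 5 arrays, pooled over the 20 cortex arrays, so WI-C and WI+CS6h-C contribute to it. Arrays of WI+CS6h-C and WI+CS24h-C, which the labels give as the same kidneys, entered this fit as independent. Pooling moved the SE in either direction. For CYP2C42 it was 0.94 in this fit and 0.46 with only the compared groups, and for EGR1 0.24 and 0.29. The share of spots well above background ran from 62.9% to 68.16% over the Ctl-C arrays and from 63.36% to 67.48% over the WI+CS24h-C arrays. Their means differed by -0.506 percentage points, and this difference was within the spread of the arrays (two-sided exact permutation test, p = 0.643, smallest possible p = 0.00794). The tissue label was checked against proximal tubule markers, of which 19 of 24 were measured. The water channel AQP1 averaged 16.32 in Ctl-C and 16.35 in WI+CS24h-C, the phosphate transporter SLC34A1 14.21 and 14.27, and the endocytic receptor LRP2 14.60 and 14.39. These 3 were chosen after their values were seen, and proximal tubule cells lie in the junction too, so that they show renal tubule tissue in both groups and do not tell cortex from CMJ. AQP1 lay above a CYP4A21 probe that averaged 15.74 in Ctl-C and 15.67 in WI+CS24h-C and was saturated on 6 of the arrays. The near-equal AQP1 means are therefore not read as an equal level.

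WI+CS24h-C differed from Ctl-C at 900 identifiers, which is 2.5% of those tested, with 374 higher (1.04%) and 526 lower (1.46%). Of the calls, 388 reached a 2-fold difference, 135 upwards and 253 downwards. The arrays of the groups did not overlap at 743 of the calls (2.07% of all identifiers). Higher calls made up 41.6% of the total. Under quantile normalization within each group, as the methods word it, they made up 14.5% of 1440 calls, and the median over all identifiers moved from 0.01 to -0.11. Counted once per gene, 231 of 7363 symbols were called (3.14%), 135 higher (1.83%) and 96 lower (1.3%). The largest rise, 5.57, was at an identifier without a symbol, and the largest fall, -6.98, was at CYP2C42. With the scan day as a block 881 identifiers were called. NR4A2 differed by 3.14 within the first scan day and 2.51 within the second, XRCC2 by 2.36 and 2.60 and CEBPA by 0.96 and 0.64. The groups shared only 2 of the 10 slides, and with the slide as a block 121 identifiers were called and 10 of the 53 called genes described here kept their call. The log2 differences of the 43 genes that lost it were 83.8% to 125% of their size without the block (median 108%), and those of the 10 that kept it 91% to 116% (median 104%). NR4A2 and XRCC2 kept it, at 3.00 and 2.31. Within the shared slides, which hold 1 array of each group, NR4A2 differed by 3.07 and 3.39, XRCC2 by 2.11 and 2.05 and CEBPA by 0.74 and 1.02. XRCC2 was not well above background on any control array, so the sizes of its differences within days and slides are not read. Without Ctl-C replicate 3 there were 510 calls, without Ctl-C replicate 1 522, without Ctl-C replicate 2 554 and without WI+CS24h-C replicate 1 551.

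**Figure D1:**
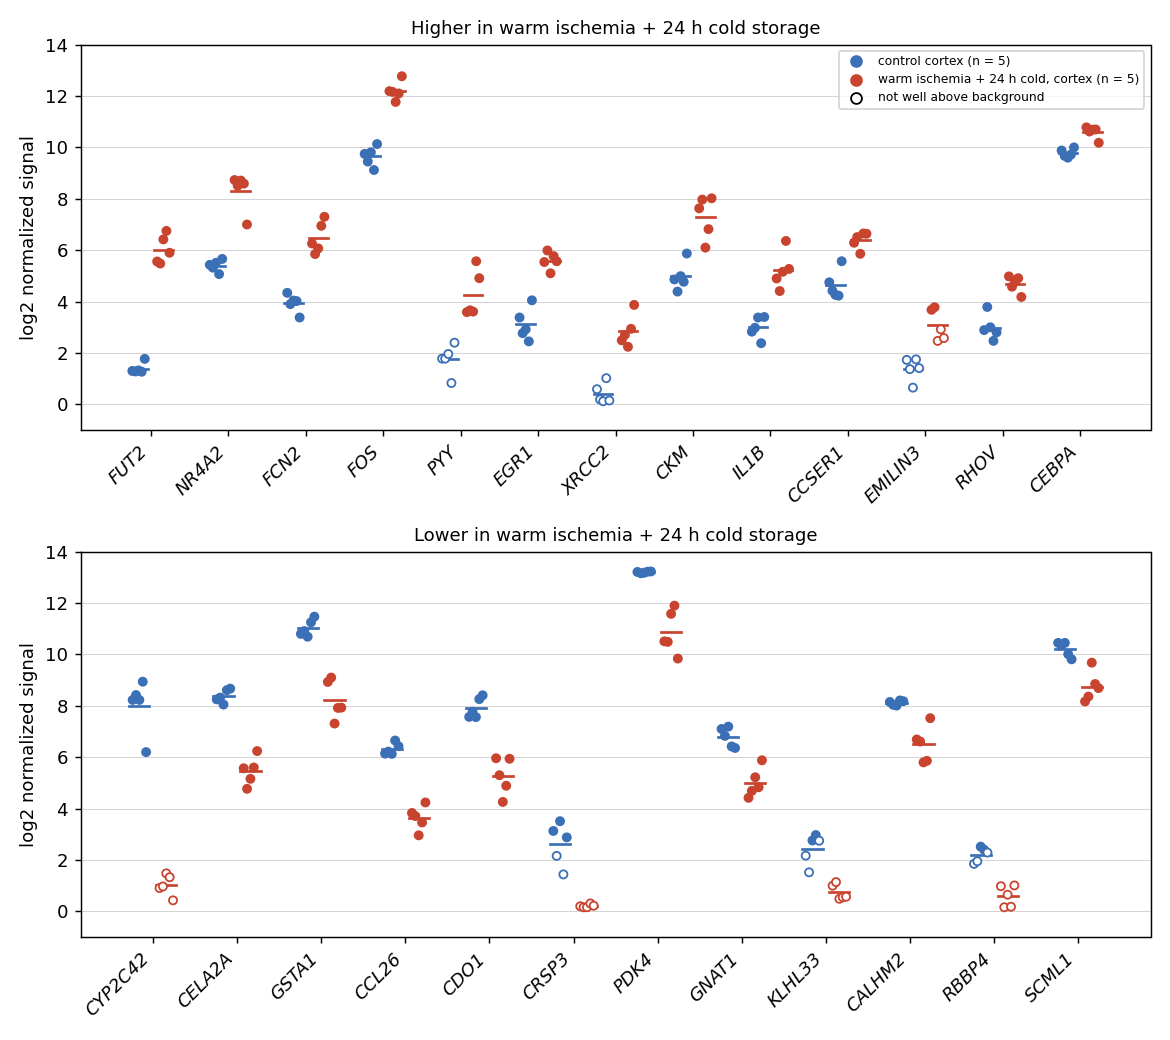
Log2 normalized signal on each array for CEBPA and the genes with the largest differences among those called without overlap, in Ctl-C (blue) and WI+CS24h-C (red), with 5 arrays per group, a line at each group mean and open circles where the array was not well above background. CYP2C42 lies between 6.20 and 8.94 in controls and under 1.5 on every WI+CS24h-C array.

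The immediate early genes were the list with the most calls on the upper side. Of its 25 genes 16 were measured, and 7 of them rose (43.8%, against 1.83% of all symbols called higher), none fell and 15 had a positive log2 fold change. The median over the list was 0.63, beside 0.09 over all symbols. The shares over all symbols (1.83% higher, 1.3% lower and 3.14% in all) are the background for every list count that follows. The 7 were FOS, EGR1, NR4A2, BTG2, KLF4, CYR61 and KLF6, and the 9 others, among them JUN and MYC, did not pass. Over all alternatives the number of calls in the list ran from 3, with the slide as a block, to 8, as without WI+CS24h-C replicate 5. Among these alternatives, the fit of all 40 arrays was chosen after seeing the data.

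NR4A2, an orphan nuclear receptor of the immediate early class, measured 5.43, 5.32, 5.51, 5.07 and 5.66 in Ctl-C. In WI+CS24h-C it measured 8.73, 8.51, 8.71, 8.59 and 7.00. Every stored kidney lay above every control, and replicate 5 lay well below the other stored kidneys. The log2 fold change was 2.91 ± 0.35, a 7.51-fold rise (adjusted p = 0.000155, limma), and it was 3.24 without replicate 5. In WI+CS6h-C the array of replicate 5 was again the lowest, at 6.92 against 8.37 to 8.78. A second NR4A2 identifier, not well above background on any control array, gave 1.69 ± 0.33.

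FOS, a subunit of the AP-1 transcription factor, measured 9.75, 9.45, 9.81, 9.12 and 10.13 in Ctl-C. In WI+CS24h-C the values were 12.19, 12.16, 11.77, 12.10 and 12.77. The groups were far apart on every array. FOS rose by 2.55 ± 0.22, or 5.85-fold (adjusted p = 4.25e-06), and its 3 probes and a second identifier (2.62) gave like differences. EGR1, a zinc finger factor of the same class, measured 3.38, 2.77, 2.92, 2.45 and 4.05 in Ctl-C and 5.54, 5.99, 5.10, 5.77 and 5.57 in WI+CS24h-C. Here too no stored kidney reached down to a control, and the rise was 2.48 ± 0.24 or 5.57-fold (adjusted p = 1.42e-05). Its signal was low, and with normexp background correction the difference was 0.36 and no longer called.

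BTG2, an antiproliferative gene that p53 and stress induce, lay between 8.52 and 9.69 in Ctl-C and between 10.01 and 11.19 in WI+CS24h-C. It rose by 1.61 ± 0.27 (adjusted p = 0.0031), with replicate 5 lowest among the stored kidneys. KLF4 and KLF6, zinc finger factors, rose by 0.90 ± 0.16 and 0.56 ± 0.14. CYR61, a matricellular protein under the control of YAP and serum response factor, rose by 1.45 ± 0.26. The related JUN gave 0.70 ± 0.21 (adjusted p = 0.0925) and NR4A3 0.72 ± 0.30. MYC gave 0.04 ± 0.15. Of 3 measured genes among the feedback inhibitors of MAP kinase signaling none was called, and SPRY2 (0.27) and DUSP6 (0.12) had the smallest p.

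C/EBP factors are bZIP proteins that control differentiation and acute-phase transcription. All 7 listed members were measured, 1 rose and 1 fell, and the median was 0.45. CEBPA measured 9.88, 9.67, 9.60, 9.72 and 10 in Ctl-C. After 24 h of storage it measured 10.78, 10.62, 10.69, 10.70 and 10.18. The groups did not overlap, with replicate 5 nearest to the controls. CEBPA rose by 0.82 ± 0.12, or 1.77-fold (adjusted p = 0.00108), and a second identifier, measured on all 10 arrays, rose by 0.75. The third, whose probe is shown above, was not well above background on any control array, so its size of change is not read. With the slide as a block the CEBPA difference was 0.92 ± 0.18 and no longer called (adjusted p = 0.0791). CEBPD, the member best known for its acute-phase response, was lower at 10.59 to 11.00 against 11.05 to 11.48. The fall was -0.52 ± 0.13 (adjusted p = 0.0339), near the threshold, and the call was lost under 11 of 24 alternatives.

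XRCC2, a repair protein of homologous recombination, measured 0.59, 0.19, 0.12, 1.02 and 0.15 in Ctl-C. In WI+CS24h-C it measured 2.49, 2.70, 2.24, 2.94 and 3.87. No control array was well above background and all 5 stored ones were, so the change has only a lower bound. Set against the lowest signal that was well above background on the control arrays, XRCC2 was at least 1.6-fold higher, and the fitted difference was 2.43 ± 0.38 (adjusted p = 0.0015). The call was lost with normexp background correction (0.09, adjusted p = 0.186) and in the deposited log2 matrix (0.36, adjusted p = 0.0501), the first of which adds an offset of 50 to every signal and the second of which holds signals without background subtraction. XRCC2 was the 1 called gene among 13 measured of 22 homologous recombination genes, whose median was 0.22. Among 14 measured genes of other DNA damage responses none was called (median -0.11). GADD45A, a growth arrest gene, gave -0.98 ± 0.26 (adjusted p = 0.0519), with arrays of the groups apart, and it was called under 11 alternatives. MDM2, the ligase that degrades p53, gave -0.37.

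The largest fitted rise with a symbol was that of FUT2, the fucosyltransferase that makes H antigen on secretory epithelia. FUT2 measured 1.30, 1.28, 1.32, 1.27 and 1.77 in Ctl-C as the mean of 3 probes. In WI+CS24h-C it measured 5.56, 5.48, 6.42, 6.75 and 5.90. Every stored kidney was more than 3 log2 units above every control. The fitted difference was 4.64 ± 0.28 (adjusted p = 6.18e-08), but its size rests on the probes. Of the 3, 2 were not well above background on any control array and gave 5.58 and 6.11. The third, whose sequence is shown above, was measured on all 10 arrays at 3.46 to 3.64 and 5.32 to 6.45, which is a difference of 2.22. On that probe alone FUT2 stood below NR4A2 (2.91), FOS (2.55) and EGR1 (2.48), so its first place rests on the probes at background. FUT2 was called under each of 24 alternatives, with differences from 0.62 under normexp to 4.81.

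**Figure D2:**
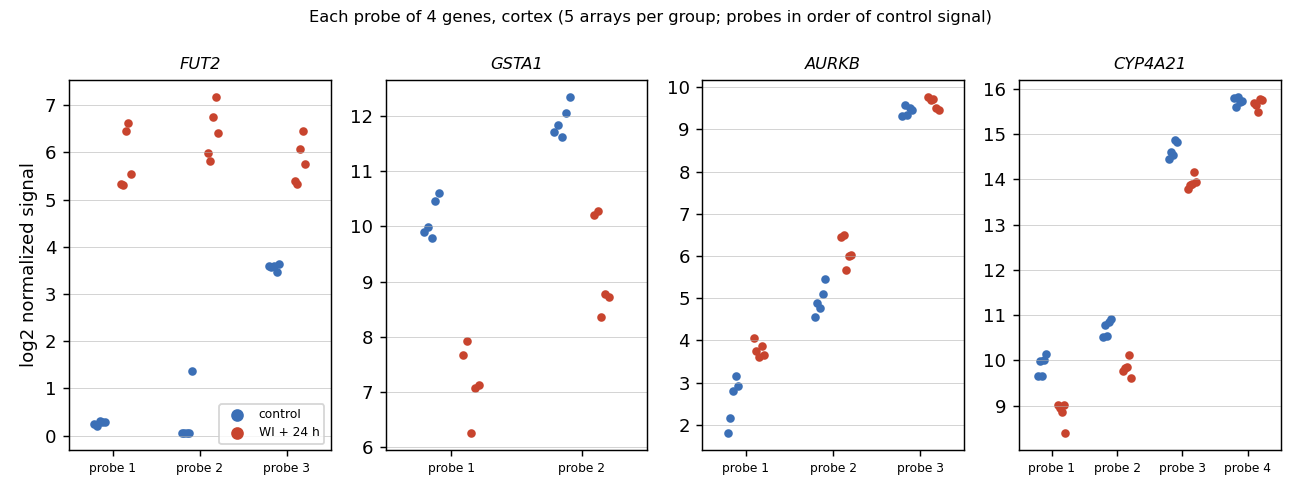
Log2 normalized signal of each probe of FUT2, GSTA1, AURKB and CYP4A21 on 5 Ctl-C (blue) and 5 WI+CS24h-C (red) arrays, with the probes of a gene in order of their control signal. The FUT2 probes differ in size of change (2.22 to 6.11) and not in direction, while the brightest probe of AURKB differs by 0.19, and the brightest of CYP4A21 was saturated on 6 of the 10 arrays, so that no size is read from it.

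FCN2, a ficolin that starts the lectin pathway of complement, measured 4.34, 3.90, 4.04, 4.02 and 3.38 in Ctl-C. In WI+CS24h-C it measured 6.26, 5.85, 6.07, 6.95 and 7.30. The groups were apart, and replicate 5 was the lowest of the controls and the highest of the stored kidneys. FCN2 rose by a fitted 2.55 ± 0.47 (adjusted p = 0.00518) as the mean of 2 probes. The brighter was measured on all arrays and gave 1.90, and the dimmer, shown above, was well above background on 2 of 5 control arrays. PYY, a peptide hormone of the gut, measured 1.78, 1.78, 1.96, 0.83 and 2.40 in Ctl-C and 3.59, 3.66, 3.61, 5.57 and 4.91 in WI+CS24h-C. No control array was well above background and all stored ones were, which makes it at least 4.29-fold higher (fitted 2.52 ± 0.44, adjusted p = 0.00337). Smaller rises without overlap were those of CCSER1 (1.74 ± 0.24), the atypical small GTPase RHOV (1.69 ± 0.21) and the matrix glycoprotein EMILIN3 (fitted 1.70 ± 0.37). EMILIN3 was well above background on 0 control and 2 stored arrays, too few for a fold to be read. Of the 3 RHOV probes 1 was not well above background on any control array. With normexp background correction FCN2, PYY, CCSER1, RHOV and EMILIN3 lost their calls.

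CKM, the muscle form of creatine kinase, measured 4.86, 4.39, 4.99, 4.77 and 5.87 in Ctl-C. In WI+CS24h-C it measured 7.63, 7.97, 6.10, 6.82 and 8.02. The lowest stored kidney was just above the highest control. CKM rose by 2.33 ± 0.39, or 5.03-fold (adjusted p = 0.00247), and a second identifier rose by 1.47 ± 0.27. CKM was the 1 call among 14 measured genes of arginine and creatine metabolism (median 0.08). In a list of 13 skeletal muscle genes, 11 were measured, CKM and the myosin light chain MYLPF (0.60 ± 0.15, adjusted p = 0.0426) were called, and the median was 0.05. The MYLPF call was lost under 12 of 24 alternatives. The summed normalized signal of that list, CKM included, ran from 227 to 316 in Ctl-C and from 336 to 629 in WI+CS24h-C. Since CKM is part of this sum, it does not show a rise of the other members. Of the list, 3 members were not well above background on any of the 10 arrays. The part of muscle tissue in the CKM result was not tested.

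Of 27 measured NF-kB and inflammatory genes, 2 rose and 1 fell, with a median of 0.09. IL1B, an inflammatory cytokine, measured 2.83, 2.98, 3.38, 2.38 and 3.40 in Ctl-C. In WI+CS24h-C it measured 4.90, 4.41, 5.16, 6.36 and 5.27. All stored kidneys were above all controls, by 2.23 ± 0.32 or 4.68-fold (adjusted p = 0.000743). The signal was low, and the call was lost with normexp (0.31) and with the slide as a block. CCL2, a monocyte chemoattractant, measured 7.45, 7.37, 7.52, 7.40 and 8.35 in Ctl-C and 9.12, 8.62, 8.18, 8.69 and 8.98 in WI+CS24h-C. It rose (adjusted p = 0.00932), although control replicate 5 reached into the range of the stored kidneys. The gene that fell was CCL26, an eosinophil chemoattractant that the array names LOC780409. It measured 6.14, 6.22, 6.13, 6.65 and 6.43 in Ctl-C and 3.83, 3.71, 2.96, 3.46 and 4.24 in WI+CS24h-C. Neither group came near the other, and the fall was -2.67 ± 0.24, or 6.37-fold (adjusted p = 5.44e-06). Among 16 measured Toll-like receptors and adaptors only TLR4, the receptor for bacterial lipopolysaccharide, was called (0.87 ± 0.19, adjusted p = 0.0191), a call lost under 5 of 24 alternatives, with 0.23 under normexp. The summed signal of 13 measured leukocyte markers ran from 925 to 1410 in Ctl-C and from 864 to 2570 in WI+CS24h-C, with none called and a median of -0.18. S100A9, a neutrophil gene, was not well above background on any control array and was on 3 stored arrays, at 3.90, 4.75 and 4.57. The part of blood cells in the cytokine results was not tested.

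Interferon-stimulated genes showed calls only in the lower direction. Of 28 listed genes 23 were measured, 2 fell and none rose, against 1.3% of all symbols called lower, and the median was -0.24. GBP2, a guanylate-binding GTPase of cell-autonomous immunity, measured 9.50, 9.22, 9.45, 9.15 and 9.35 in Ctl-C. In WI+CS24h-C it measured 7.90, 8.07, 8.41, 8.28 and 7.96. The groups were narrow and apart, and GBP2 fell by 1.21 ± 0.13, or 2.31-fold (adjusted p = 7.99e-05), under each of 24 alternatives. MX2, a dynamin-like antiviral GTPase, measured 7.15, 6.87, 7.29, 6.44 and 6.62 in Ctl-C and 5.20, 5.60, 5.73, 5.36 and 5.71 in WI+CS24h-C. The difference was -1.35 ± 0.27 (adjusted p = 0.0101), and 2 further MX2 identifiers gave -1.69 and -1.85. OAS1 (-0.96 ± 0.30), ISG20 (-0.92 ± 0.29) and ISG15 (-0.63 ± 0.26) were not called. The count of falls in the list was between 1 and 5 over all alternatives.

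Genes for the metabolism of drugs gave the largest fall in the comparison. Of 36 listed genes 26 were measured, 3 fell (CYP2C42, GSTA1, CYP4A21) and 1 rose (ABCC2), with a median of -0.33. Of all symbols 1.3% were called lower and 1.83% higher, against 3 and 1 of the 26 here. CYP2C42, a porcine cytochrome P450 of the CYP2C family, measured 8.23, 8.42, 8.23, 8.94 and 6.20 in Ctl-C. In WI+CS24h-C it measured 0.91, 0.97, 1.48, 1.33 and 0.43, none of them well above background. The transcript thus passed from a clear signal in all controls, weakest in replicate 5, to one at background in all stored kidneys. It was at least 53.6-fold lower (fitted -6.98 ± 0.94, adjusted p = 0.00047). Cytochromes of 1 family are alike in sequence, so the signal may include close relatives.

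GSTA1, an alpha-class glutathione S-transferase that the array names GSTA2, measured 10.80, 10.91, 10.69, 11.25 and 11.47 in Ctl-C. In WI+CS24h-C it measured 8.93, 9.10, 7.31, 7.92 and 7.93. No array overlapped, and the fall was -2.79 ± 0.48, or 6.92-fold (adjusted p = 0.00327). A second identifier under the same symbol went the other way, at 1.88 ± 0.84, and was not called (adjusted p = 0.275). CYP4A21, a bile acid hydroxylase, fell (adjusted p = 0.00129), with a mean of -0.68 ± 0.10 over 4 probes. The 3 probes that were not saturated gave -1.05, -0.88 and -0.73. The brightest was saturated on 6 of the 10 arrays and draws the mean towards 0, and on it alone the call was lost. ABCC2, an efflux pump for conjugates, rose by 0.60 ± 0.10 (adjusted p = 0.0036).

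CDO1, the cysteine dioxygenase that opens the route from cysteine to taurine, measured 7.57, 7.77, 7.56, 8.26 and 8.41 in Ctl-C. In WI+CS24h-C it measured 5.96, 5.30, 4.26, 4.89 and 5.94. The highest stored kidney was well below the lowest control, and CDO1 fell by 2.64 ± 0.37, or 6.24-fold (adjusted p = 0.000548). Of 15 measured genes of sulfur amino acid metabolism it was the 1 that fell. GGT1, which cleaves glutathione outside the cell, was the 1 that rose (0.66 ± 0.14, adjusted p = 0.0161), and the median was -0.01.

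PDK4, the kinase that shuts off pyruvate dehydrogenase when fatty acids are burned, was even in the controls, at 13.21, 13.16, 13.18, 13.22 and 13.23. In WI+CS24h-C it measured 10.51, 10.49, 11.58, 11.90 and 9.84. All stored kidneys were lower and spread over more than 2 log2 units. PDK4 fell by 2.34 ± 0.37, or 5.05-fold (adjusted p = 0.00181), and its 9 probes ran from -2.59 to -2.10. Of 23 measured genes of fatty acid oxidation PDK4 and HADHA, a subunit of the trifunctional enzyme, fell and none rose, with a median of -0.23. HADHA (-0.90 ± 0.23, adjusted p = 0.044) lost its call under 12 of 24 alternatives. None of 22 measured genes of gluconeogenesis and the citrate cycle was called (median 0.15), with 16 above 0. None of 15 measured subunits of the respiratory chain and ATP synthase was called (median 0.18). Their summed signal was 145000 to 151000 in Ctl-C and 140000 to 250000 in WI+CS24h-C, with the highest value in replicate 5.

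CELA2A, an elastase of the pancreas type, measured 8.25, 8.32, 8.05, 8.61 and 8.67 in Ctl-C. In WI+CS24h-C it measured 5.57, 4.77, 5.16, 5.60 and 6.24. The groups were apart by more than 1 log2 unit, and the fall was -2.91 ± 0.54, or 7.52-fold (adjusted p = 0.00534). GNAT1, a transducin subunit known from rod cells, fell by 1.77 ± 0.29. CALHM2, a subunit of a large-pore channel, fell by 1.62 ± 0.32. SCML1, a relative of Polycomb proteins, fell by 1.47 ± 0.35 (adjusted p = 0.028) at the 1 of its 3 identifiers above background, a call lost under 7 of 24 alternatives. A further 3 genes had falls without overlap but were near or at background. CRSP3, a Mediator subunit under its older name, measured 3.13, 2.16, 3.51, 1.44 and 2.88 in Ctl-C, where 3 arrays were well above background, and 0.16 to 0.31 in WI+CS24h-C, where none was. It was at least 1.29-fold lower (fitted -2.42 ± 0.35, adjusted p = 0.000833). KLHL33, a Kelch-like protein, and the histone chaperone RBBP4 were each well above background on 2 control and 0 stored arrays, and no fold is given.

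Stress pathways differed in their counts. Of 15 measured heat shock genes 3 rose (20%, against 1.83% of all symbols called higher) and none fell, with a median of 0.35. They were HSPH1 (0.53 ± 0.09), a large HSP110 chaperone, CHORDC1 (0.62 ± 0.13), an HSP90 cochaperone, and CRYAB (0.83 ± 0.18), a small heat shock protein whose groups overlapped. HSPH1 and CRYAB each lost their call under 7 of 24 alternatives. None of 13 genes of the unfolded protein response was called, and the sensor ERN1 (-0.40, adjusted p = 0.0165) and the lectin chaperone CANX (-0.39, adjusted p = 0.0168) fell short of the fold threshold. Of 21 measured hypoxia targets 1 was called, the mTORC1 inhibitor DDIT4, which fell by 1.05 ± 0.18 (adjusted p = 0.00259). Its values were 10.41, 10.28, 10.49, 10.30 and 10.21 in Ctl-C and 9.30, 9.25, 9.55, 9.57 and 8.79 in WI+CS24h-C, with no overlap. The median of the hypoxia targets was 0.08. Of 14 NRF2 targets, the heme-degrading enzyme HMOX1 rose (0.78 ± 0.18, adjusted p = 0.0206) and the thioredoxin reductase TXNRD1 fell (-0.55 ± 0.13, adjusted p = 0.0314), which is 14.3% of the list called, against 3.14% of all symbols. HMOX1 lost its call under 7 and TXNRD1 under 10 of 24 alternatives. HMOX1 was tight in controls (9.97 to 10.05) and split in stored kidneys, with 11.28 and 11.17 in replicates 1 and 2 and 10.40 to 10.59 in the others.

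The splicing factor SRSF5, the 1 measured gene of 3 cold-inducible RNA-binding proteins in the list, fell by 0.94 ± 0.18 (adjusted p = 0.00663). CIART, a repressor of the circadian clock, fell by 0.76 ± 0.15 (adjusted p = 0.00782) and was the 1 call among 9 measured clock genes. In TGF-beta and BMP signaling 2 of 22 genes rose. They were SMAD6 (0.60 ± 0.10, adjusted p = 0.00317), an inhibitory SMAD, and ID2 (0.73 ± 0.14, adjusted p = 0.00708), a BMP target that blocks basic helix-loop-helix factors. The median of that list was 0.31. AURKB, a mitotic kinase, was the 1 call among 16 measured cell division genes (0.86 ± 0.15, adjusted p = 0.00341), all 16 were above 0 and the median was 0.53. Its 2 weaker probes gave 1.18 and 1.22 and its brightest 0.19, which was not called. Among 16 kidney injury markers ANXA3, an annexin, fell by 0.80 ± 0.13 (adjusted p = 0.00238) and none rose.

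No member was called among 15 measured apoptosis regulators (median 0.18), 14 cholesterol synthesis genes (0.36), 28 cytosolic ribosomal proteins (0.01), 23 proteasome subunits (0.11) and 3 RT-qPCR reference genes (0.18). With 3.14% of all symbols called, lists of these sizes would on average hold under 1 call each, so the zeros are near the background. ACTB gave 0.36 ± 0.12 and PPIA 0.18 ± 0.17. All 14 cholesterol genes were above 0, and their summed signal was 9880 to 10700 in Ctl-C and 10700 to 23900 in WI+CS24h-C, highest in replicate 5. The ribosomal genes stayed between -0.10 and 0.15.

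Among nephron segments, 2 of 19 measured proximal tubule genes rose and none fell (median 0.19). SLC22A2, the basolateral organic cation transporter, lay between 9.27 and 9.81 in Ctl-C and between 10.20 and 10.48 in WI+CS24h-C, a rise of 0.78 ± 0.12 (adjusted p = 0.00102). ANPEP, a brush border aminopeptidase, rose by 0.96 ± 0.21 (adjusted p = 0.0165), with 12.49 and 12.56 in replicates 1 and 2 and 11.49 to 11.85 in the others. In thick limb and distal tubule the tight junction protein CLDN19 rose (0.87 ± 0.20) and the magnesium channel TRPM6 fell (-0.74 ± 0.17), calls lost under 8 and 9 of 24 alternatives. In collecting duct the factor GATA3 rose by 0.76 ± 0.20 (adjusted p = 0.0494), a call lost under 15 of 24 alternatives. No member was called among 4 podocyte, 6 endothelial, 8 fibroblast, 4 erythrocyte and 11 adipocyte genes. LPL, a lipoprotein lipase that fat cells secrete, gave 1.06 ± 0.30 (adjusted p = 0.0616). The globin gene HBB was well above background on 1 control and 3 stored arrays. The erythrocyte sum was 23.5 to 31.1 in Ctl-C and 17.4 to 74 in WI+CS24h-C, and the adipocyte sum 9350 to 11200 and 7120 to 9720. The adiponectin receptor ADIPOR2, at a mean log2 signal of 12.56 over the cortex arrays, weighs heavily in the adipocyte sum. It gave -0.33 and was not called.

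**Figure D3:**
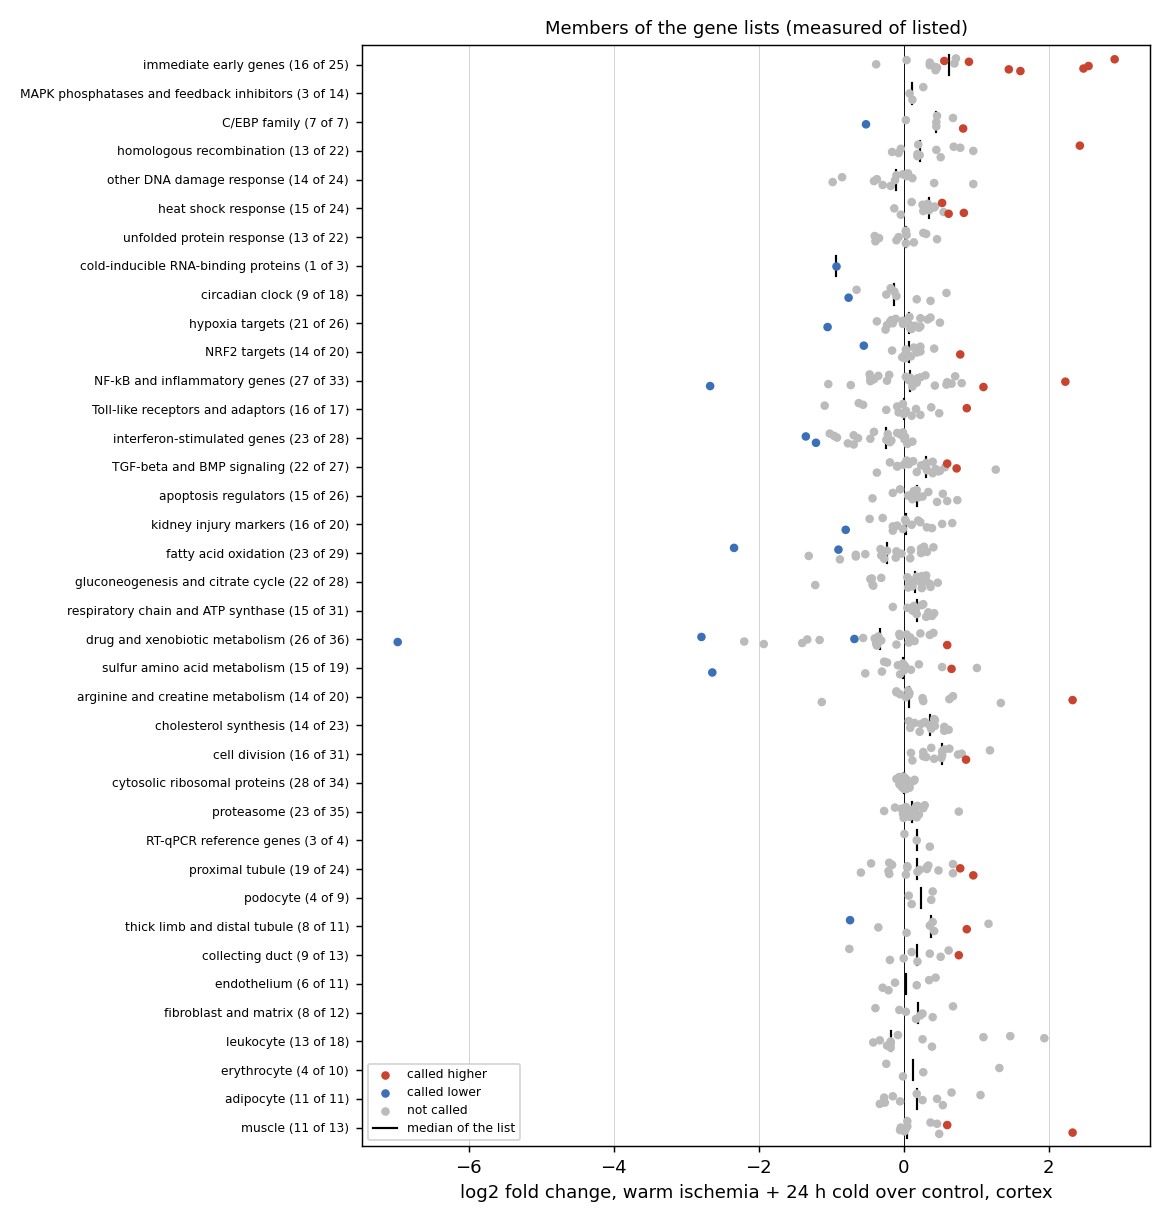
Log2 fold change of WI+CS24h-C over Ctl-C for each measured member of 38 gene lists, 1 row per list, with called members in red (higher) or blue (lower), uncalled ones in grey and a black line at the median of the list. Immediate early genes hold 7 red points of 16, interferon-stimulated genes 2 blue of 23, and most lists centre near 0.

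Where the changes stood before storage was read from WI-C, which shares the control arrays, so values are given side by side. After warm ischemia alone 34 identifiers were called against Ctl-C (0.0946%). FOS (1.27 ± 0.22), EGR1 (1.34 ± 0.24) and IL1B (2.26 ± 0.32) were among them, while NR4A2 stood at 1.07 ± 0.35 and was not. Of the immediate early list FOS and EGR1 were the 2 called higher at this stage, and IER3, a stress-induced regulator of cell survival, was called lower (-0.95 ± 0.15, adjusted p = 0.00859). After storage IER3 stood at -0.38 ± 0.15 and was not called. IL1B stood at 2.26 at the end of warm ischemia and at 2.23 after storage, whereas FOS stood at 1.27 and 2.55 and EGR1 at 1.34 and 2.48. PYY, well above background on all 5 WI-C arrays and no control array, had a fitted 1.76 ± 0.44 at this stage and was not called (adjusted p = 0.326). RBBP4 was called, but no WI-C array and 2 control arrays were well above background, and no fold is given. Other genes with large differences after storage stood nearer to 0 and were not called: FUT2 gave 0.03, CKM -0.27, FCN2 -0.37, CCL26 -0.15, CDO1 0.29 and PDK4 -0.06. CEBPA gave -0.06 and GBP2 -0.11. CYP2C42 measured 7.80, 9.27, 8.22, 2.30 and 8.99 in WI-C, so that 1 kidney was at background before any cold storage and 4 were within or just above the range of the controls.

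WI+CS24h-C differed directly from WI-C at 433 identifiers (1.2%), 229 higher (0.637%) and 204 lower (0.568%). Among symbols 152 of 7363 were called (2.06%). The largest fitted rises among named genes were FUT2 (4.61 ± 0.28, again over all 3 probes), FCN2 (2.92 ± 0.47) and CKM (2.60 ± 0.39), and the falls CYP2C42 (-6.29 ± 0.94), CDO1 (-2.93 ± 0.37) and CELA2A (-2.59 ± 0.54). FOS (1.28), EGR1 (1.14), NR4A2 (1.84) and XRCC2 (a fitted 2.02, with no size read) were called in this comparison too. IL1B was not, at -0.03 ± 0.32. Higher calls made up 52.9%, and from 42% with normexp to 63.4% under quantile normalization within each group. They were the smaller part in other settings too, among them the deposited matrix (46.7%), the detection covariate (45.4%) and the fit without WI+CS24h-C replicate 4 (44.6%). The count was 260 without WI+CS24h-C replicate 1, 266 without WI-C replicate 3, 278 without WI-C replicate 4 and 280 without WI-C replicate 5.

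At 6 h of storage 1445 identifiers were called against the same controls (4.02%). In a direct test of 24 h against 6 h none was called by limma, and 1119 had an unadjusted p under 0.05. NR4A2 differed by 0.02 ± 0.35 and XRCC2 by 0.04 ± 0.38, and CEBPA averaged 10.59 at 24 h and 10.60 at 6 h. The log2 fold changes of these genes against Ctl-C at 6 h were 2.89, 2.40 and 0.83, the second against controls at background. At 6 h FUT2 stood at a fitted 4.69 over all its probes, FOS at 2.61, EGR1 at 2.60, CKM at 2.14, CYP2C42 at a fitted -6.84, CCL26 at -2.56 and PDK4 at -2.32. Detection varied more at 6 h, where 57.01% to 68.47% of spots were well above background. With the detection share as a covariate again none was called by limma, and 1049 had an unadjusted p under 0.05. Small differences between the times may not have been detectable with 5 arrays per group. The normalization bore on this result: within-group quantile normalization gave 1152 calls, 1134 of them lower at 24 h. It also moved the median over all identifiers from -0.0113 to -0.0945, so these calls include a shift of the whole group.

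**Figure D4:**
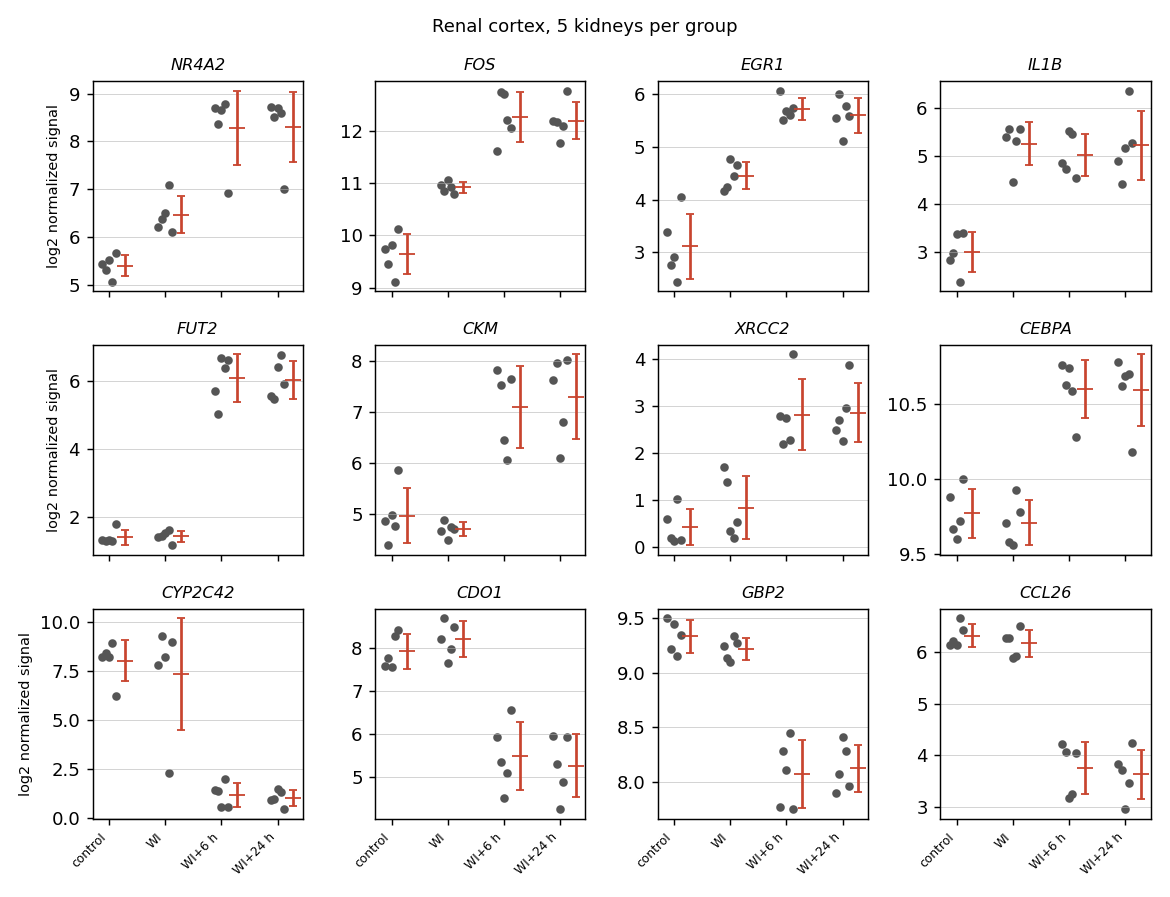
Log2 normalized signal of 12 genes in the 4 cortex groups (control, warm ischemia, and warm ischemia with 6 h or 24 h of cold storage), with 1 point per array, 5 per group, and the mean with SD in red. IL1B has its rise by the end of warm ischemia, FOS and EGR1 stand between, and FUT2, XRCC2, CEBPA, CYP2C42, CDO1, GBP2 and CCL26 separate only in the stored groups, apart from 1 WI-C array of CYP2C42 at 2.30.

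In CMJ of the WI+CS24h kidneys 1313 identifiers were called against control CMJ (3.65%). The test of the difference between the tissues called none (limma, 928 with an unadjusted p under 0.05). In CMJ NR4A2 rose by 2.77 ± 0.32, FOS by 3.02, FUT2 by 4.25 and CEBPA by 0.85, and CDO1 stood at -3.34, CCL26 at -2.94 and CYP2C42, at background in all stored CMJ arrays, at a fitted -6.27. CKM (1.54 ± 0.58) was not called in CMJ, nor was XRCC2 (adjusted p = 0.0514), well above background there on 0 control and 2 stored arrays. The tissue differences were 0.14 ± 0.48 for NR4A2 and 0.82 ± 0.61 for XRCC2, the second with controls at background in both tissues. CRSP3 was well above background on 1 control and 0 stored arrays of CMJ and RBBP4 on none, so no size of change is read for them there. Within-group quantile normalization gave 194 calls for the tissue difference, 190 of them negative, and moved the median over all identifiers from -0.00281 to -0.241.

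**Figure D5:**
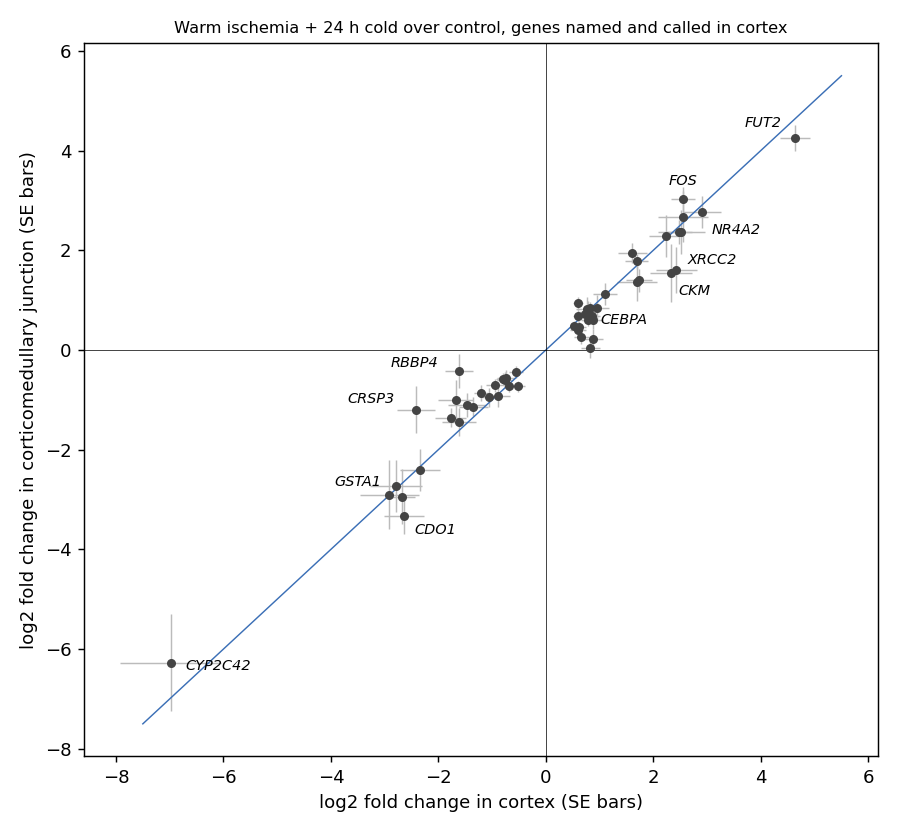
Log2 fold change of WI+CS24h over control in cortex (horizontal) and in CMJ (vertical) for the 53 genes named and called in cortex, with SE bars and the line of equal change in blue. By their fitted values FUT2 (4.64 and 4.25) and CYP2C42 (-6.98 and -6.27) lie at the ends near the line, and CKM lies nearer to 0 in CMJ (1.54) than in cortex (2.33). The values of FUT2 and CYP2C42 rest in part on signals at background, so their exact sizes are not read. The CMJ positions of XRCC2, CRSP3, KLHL33 and RBBP4, which were at or near background on most arrays there, show no size of change.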

How the data were processed

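Cortex and corticomedullary junction were measured on 40 arrays, 5 per group, and groups were read from the sample titles. The authors deposited 1 Agilent file of scanner intensity per array, extracted, per the submitters' processing notes, with Feature Extraction 11.5.1.1 and with R 2.15.2 and limma named as tools. The deposited intensity used here is already background-subtracted and detrended, and values at background are raised to small positive ones, which makes low log2 values imprecise. The authors also deposited a log2 matrix of 35955 rows. Its values were checked against the files, and 99.98% of 1286120 values from 32153 single-spot identifiers lay within 1e-08 of the log2 median signal, not corrected for background, after quantile normalization of the 40 arrays together. The matrix served as an alternative, and every column was matched to 1 sample.

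The log2 intensity of 43803 non-control spots, with outlier spots left out, was quantile normalized over all 40 arrays and averaged by identifier (35955, of which 8813 have a symbol, 5025 through a RefSeq table of Sscrofa11.1 used for names only). In R 4.3.3 with limma 3.58.1, 1 term per group was fitted to the 20 cortex arrays with lmFit and eBayes, and to all 40 for the tissue difference, with Benjamini-Hochberg adjustment. The scripts were tested on simulated data. An identifier counted as well above background if at least 1 of its probes did. For a group without any such array, a bound sets the mean of the other group against, per array, the higher of the gene's own signal and the lowest signal well above background. None is given where under 3 arrays of the other group were well above it, and signal on arrays not well above it can exceed that lowest signal, so bounds are approximate.

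Genes described are NR4A2, XRCC2 and CEBPA, the 12 largest rises and 12 largest falls called without overlap and with a symbol, up to 4 called members of each gene list (2 with the smallest p where none was called), and the 3 largest calls each way against WI-C. The brightest identifier stood for a symbol. AQP1, LRP2, SLC34A1, KLF4, KLF6, CYR61, IER3, JUN, MYC, NR4A3, OAS1, ISG15 and ISG20 were chosen after their values were seen. Some listed genes are not reported here. Members and lists were chosen with earlier results of these data known. List sums add linear normalized signals over members.

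Alternatives covered scaling, background correction, a filter on dim genes, probe summary, the deposited matrix, blocks for replicate number, slide, scan day and kidney, a detection covariate, the arrays in the fit, and each array left out. Replicate numbers were not taken as pairs, since the correlation of same-numbered deviations was -0.263 to 0.182 between WI+CS24h-C and Ctl-C, and over 0.1 in 1 of 5. Between 24 h and 6 h, which the labels give as the same kidneys without stating that numbers match, it was -0.31 to 0.363, and over 0.1 in 3 of 5. Between cortex and CMJ it was 0.145 to 0.481 in WI+CS24h (5 of 5 over 0.1) and -0.128 to 0.0799 in controls (0 of 5). The best match had the same number in only 2 of 5 between cortex and CMJ of WI+CS24h, and in 2 of 5 between 24 h and 6 h. The tissue difference was also fitted with the kidney as a random block. The number of arrays limits the precision.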

Additional observations from a re-analysis of the deposited data

Results flagged for a closer look

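In 4 of 52 groups of 5 arrays examined, 1 array lay so far from the other 4 that its gap passed the critical share of the range (0.71). Chance alone does so in about 1 group in 20. NR4A2 in WI+CS24h-C had replicate 5 at 7.00 against 8.51 to 8.73, a gap of 0.870 of the range. CEBPA in WI+CS24h-C had replicate 5 at 10.18 against 10.62 to 10.78, a gap of 0.738. FUT2 in Ctl-C had replicate 5 at 1.77 against 1.27 to 1.32, a gap of 0.901, and these values average 3 probes, of which 2 were at background. CYP2C42 in Ctl-C had replicate 5 at 6.20 against 8.23 to 8.94, a gap of 0.741. Control replicate 5 had the lowest share of spots well above background in its group (62.9%), and stored replicate 5, at 67.02%, did not. Without WI+CS24h-C replicate 5, NR4A2 and CEBPA remained called at 3.24 and 0.93. Without Ctl-C replicate 5, FUT2 and CYP2C42 remained called at 4.73 and -7.43.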

How the results depend on the processing

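The count of 900 calls for WI+CS24h-C versus Ctl-C became 1440 with quantile normalization within each group, 196 with normexp, 523 in the deposited matrix, 121 with the slide as a block, 1406 with the detection share as a covariate and, in a fit chosen after seeing the data, 1590 with all 40 arrays, and leaving out 1 array gave 510 to 1015. Low counts followed Ctl-C replicates 1 (522), 2 (554) and 3 (510) and WI+CS24h-C replicate 1 (551). For WI+CS24h-C versus WI-C (433 calls) the same settings, without the first, gave 112, 276, 118, 1014 and 774, the compared groups alone 202, and leaving out 1 array 260 to 428. For 24 h versus 6 h (0 calls) quantile normalization within each group gave 1152 and leaving out 1 array 0 to 1, the 1 without WI+CS24h-C replicate 4. For the tissue difference (0 calls) it gave 194, the deposited matrix 1, and leaving out 1 array 0 to 2, the 2 without Ctl-CMJ replicate 3. The difference in detection share was -1.36 to 0.105 with 1 array left out, and 0.105 without WI+CS24h-C replicate 4 was the reversal. The causes were not tested.

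With the replicate block there were 801, 457, 0 and 0 calls in these 4 comparisons, and of the 53 called genes described CEBPD and GATA3 lost their call. With cortex and CMJ arrays of 1 number as 1 kidney in a random block, chosen after seeing the data, the tissue difference again gave 0 calls, with an SE of 0.41 for NR4A2 and 0.54 for XRCC2.

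Of 1269 values of called genes over the alternatives, 1093 kept their call, 176 lost it and 0 changed direction. Leaving out 1 array cannot change the direction of a gene whose groups do not overlap, so the last count is fixed in part. NR4A2, FUT2, FOS, CYP2C42, CCL26 and GBP2 kept theirs in all 24. EMILIN3 lost its call under 6, GGT1 and SMAD6 under 4, and CHORDC1 and AURKB under 3 of them. Calls lost were 43 with the slide as a block, 21 with normexp and 11 in the deposited matrix. Signal over background limits CYP2C42, XRCC2, PYY, EMILIN3, CRSP3, KLHL33, RBBP4, 2 of 3 FUT2 probes, 1 of 3 RHOV probes, 1 of 2 FCN2 probes in part and the dimmest CEBPA and NR4A2 identifiers to bounds or to no fold.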
